A study of Mus musculus with 6 samples.

Results

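Cytochrome P450 genes of families 1 to 3 were examined in mouse liver 3 days after surgery on the portal vein. The set was a named list of 44 genes, chosen by name and not by a measured value, of the 20018 genes for which the arrays held a probe matched to a RefSeq transcript. Of the 44, 40 had such a probe (52 probes in all), and Cyp2a5, Cyp2c40, Cyp2c69 and Cyp3a41a were not analysed here. The gene listed as Cyp2c44 is named Cyp2c23 in the RefSeq table used for naming, and the older name is kept. PVBL mice had their left portal branch ligated, and the right lobe, which kept its portal supply, was collected as regenerating liver at 3 days. In the sham group the same lobe was collected 3 days after a sham operation. Both groups were male C57BL/6J mice without a transgene or drug in the labels, which give no age. Each group held 3 samples on 1 single-colour array each, and nothing in the labels says that the samples of a group came from separate animals, so a p-value here reflects the scatter of the 3 samples, some of which may be technical.

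Cytochromes P450 are haem enzymes that sit in the endoplasmic reticulum, take electrons from NADPH-cytochrome P450 reductase (Por) and insert an oxygen atom into their substrates. Families 1 to 3 oxidise drugs, plant compounds, pollutants, steroids and fatty acids, and the liver is their main site. In this organ many are concentrated in the hepatocytes around the central vein. Family 1 is known for induction through the aryl hydrocarbon receptor (Ahr), the 2b subfamily through the constitutive androstane receptor (Nr1i3) and the 3a subfamily through the pregnane X receptor (Nr1i2). In mice the 2a, 2b, 2c, 2d and 3a subfamilies have expanded into clusters of very similar neighbouring genes, several with a bias between male and female liver.

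To show the regulatory sequence next to the genes that set the pattern, the 250 bases before the annotated start are given for 7 genes from RefSeq (build GRCm38.p6), 5′ to 3′ on the strand of the gene. Cyp2c55 and Cyp1a1 are shown as the members that rose, Cyp2j5 as the member with the largest fall, and Cyp2c37, Cyp2c50, Cyp2c29 and Cyp2c68 as 2c members whose levels on the PVBL arrays lay below sham by different amounts. The windows are chr19:39006769-39007018 (plus strand) for Cyp2c55, chr9:57697363-57697612 (plus) for Cyp1a1, chr4:96664120-96664369 (minus) for Cyp2j5, chr19:39992174-39992423 (plus) for Cyp2c37, chr19:40089429-40089678 (plus) for Cyp2c50, chr19:39286835-39287084 (plus) for Cyp2c29 and chr19:39741102-39741351 (minus) for Cyp2c68. Capitals mark matches, on either strand, to GCGTG (the core bound by the Ahr complex), CAAAGTCCA (a site known for HNF4), ATTGAT (a core known for Onecut factors) and TATAAA (the TATA box).
Cyp2c55: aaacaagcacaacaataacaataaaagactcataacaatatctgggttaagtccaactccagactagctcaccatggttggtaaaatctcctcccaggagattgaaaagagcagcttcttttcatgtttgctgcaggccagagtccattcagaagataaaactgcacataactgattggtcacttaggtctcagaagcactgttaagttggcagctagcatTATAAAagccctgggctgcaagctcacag
Cyp1a1: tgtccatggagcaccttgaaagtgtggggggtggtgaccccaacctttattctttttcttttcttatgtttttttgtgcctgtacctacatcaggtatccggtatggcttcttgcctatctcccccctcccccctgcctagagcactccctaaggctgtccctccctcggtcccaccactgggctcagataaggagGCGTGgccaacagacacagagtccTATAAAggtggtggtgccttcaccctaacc
Cyp2j5: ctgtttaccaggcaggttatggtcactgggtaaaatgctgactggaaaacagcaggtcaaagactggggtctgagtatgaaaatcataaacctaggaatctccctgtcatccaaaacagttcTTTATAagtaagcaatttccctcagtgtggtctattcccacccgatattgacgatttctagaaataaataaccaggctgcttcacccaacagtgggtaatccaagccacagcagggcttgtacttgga
Cyp2c37: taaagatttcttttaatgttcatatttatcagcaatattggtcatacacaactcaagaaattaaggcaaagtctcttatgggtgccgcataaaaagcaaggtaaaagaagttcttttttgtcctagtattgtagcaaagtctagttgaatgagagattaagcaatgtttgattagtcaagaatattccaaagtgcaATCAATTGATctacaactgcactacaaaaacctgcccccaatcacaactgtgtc
Cyp2c50: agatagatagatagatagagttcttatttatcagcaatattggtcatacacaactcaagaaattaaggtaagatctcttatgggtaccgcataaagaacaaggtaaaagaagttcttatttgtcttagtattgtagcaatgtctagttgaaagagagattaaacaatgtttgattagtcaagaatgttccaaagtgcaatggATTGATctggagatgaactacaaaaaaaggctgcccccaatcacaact
Cyp2c29: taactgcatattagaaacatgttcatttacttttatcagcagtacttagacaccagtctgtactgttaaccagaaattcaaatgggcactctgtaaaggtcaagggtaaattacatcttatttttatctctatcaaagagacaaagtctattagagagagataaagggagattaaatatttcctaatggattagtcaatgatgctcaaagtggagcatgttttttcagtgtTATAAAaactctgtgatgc
Cyp2c68: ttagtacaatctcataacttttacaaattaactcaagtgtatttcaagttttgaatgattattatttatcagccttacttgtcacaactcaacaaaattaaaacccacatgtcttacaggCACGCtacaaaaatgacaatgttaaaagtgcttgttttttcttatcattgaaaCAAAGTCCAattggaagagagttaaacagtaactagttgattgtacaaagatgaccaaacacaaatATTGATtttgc

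Promoters of 39 of the 44 genes were in the RefSeq table. The 9-base HNF4 sequence stood in the window of 9 of them (Cyp2c40, Cyp2c65, Cyp2c67, Cyp2c68, Cyp2c69, Cyp2c70, Cyp3a11, Cyp3a16 and Cyp3a41a) and in 0.384% of all 32851 promoter windows. TATAAA stood in 22 of the 39, against 12.4% of all windows, ATTGAT in 9, against 6.72%, and GCGTG in 5 (Cyp1a1, Cyp1b1, Cyp2b10, Cyp2c68 and Cyp2j9), against 28.2%. No match of one motif overlapped a match of another in these genes. Members of a cluster share much of their promoter, so these counts are not independent. Aligned end to end, the windows of Cyp2a4 and Cyp2a5 were identical at 97.6% of columns, those of Cyp3a41a and Cyp3a44 at 94.4%, of Cyp2c68 and Cyp2c69 at 91.3%, of Cyp2c37 and Cyp2c50 at 84.3%, and of Cyp2c55 and Cyp2c37 at 54.8%. A match is a description of the letters, not a site or a cause.

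Values below are log2 levels, meaning log2 of the background-corrected spot signal minus the 75th percentile of all probes on the array. A level of one probe cannot be set against that of another, so each gene is compared only with itself. Genes were tested with limma, with Benjamini-Hochberg adjustment over all 13586 genes that were well above background on every array of at least 1 group, and called at an adjusted p under 0.05. Of the 40 members with a probe, 35 passed this filter. The share of probes well above background ran from 48.1% to 53.6% per array, arrays of one group correlated with r of at least 0.982, and all arrays lay on 1 slide, with PVBL in row 2 and sham in row 1, and an effect of the row cannot be told apart from that of surgery. Fewer cells of a type and less RNA per cell cannot be told apart in these bulk samples.

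Relative to the 75th percentile of each array, more P450 genes fell than rose in the regenerating lobe. This did not hold with spike-in scaling, where 4 were higher and 1 lower, as were 1612 and 186 of all 13586 genes tested. With the 75th percentile, 10 of the 35 tested members fell, among them Cyp2j5, Cyp2e1 and 4 of the 2d genes. Of the others, 2 rose (Cyp2c55 and Cyp1a1), and 23 did not pass the threshold. Of all genes tested, 32.9% were called, 15.1% rose and 17.8% fell. The share of tested members that fell was 28.6%, and 5 of them fell at least 2-fold (14.3%, against 4.6% of all genes). At least a 2-fold rise was called in 1 member, Cyp2c55, against 6.85% of all genes. The median log2 difference of the members was -0.47, against -0.10 for all genes tested. Quantile scaling gave a median of -0.27 for the members and -0.04 for all genes, with 7 members and 2164 of all genes lower. Without PVBL 3 the medians were -0.28 and -0.08. Scaling on spike-in probes shifts all genes of an array alike, and moved the median of all genes to 0.33 and that of the members to -0.04. The members' median minus that of all genes was -0.37 both with this scaling and with the 75th percentile. With spike-in scaling Cyp2j5 was the only member called lower, and Cyp2a22 and Cyp2b10 joined Cyp2c55 and Cyp1a1 as higher. In 22 members the values of the groups were fully separate, 20 of them with PVBL lower (57.1%, against 29.1% of all genes tested) and 2 with PVBL higher (5.71%, against 22.3%).

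**Figure D1:**
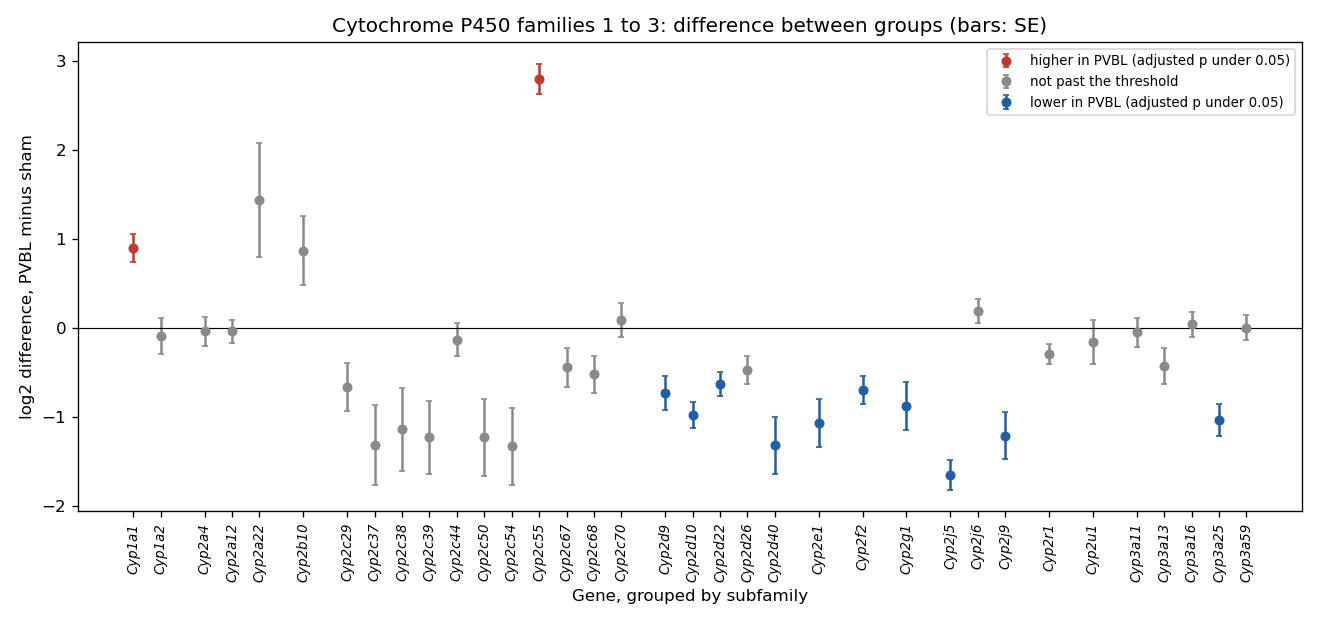
Log2 difference (PVBL minus sham, vertical axis) of the 35 tested genes, grouped by subfamily, with limma's standard error as bars. Red marks the 2 genes that rose, blue the 10 that fell and grey the 23 that did not pass the threshold, and Cyp2c55 stands alone at 2.80.

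Cyp2c55 rose the most. It encodes a 2c enzyme that is abundant in mouse colon, makes 19-HETE from arachidonic acid and is known to be inducible in liver through Nr1i3 and Nr1i2. Its log2 level was 3.38, 3.74 and 3.37 in PVBL 1 to 3, against 0.50, 0.93 and 0.68 in sham 1 to 3. Every PVBL array lay far above every sham array, and the spread within each group was small. The mean was 3.50 ± 0.21 in PVBL and 0.70 ± 0.21 in sham (SD, n = 3 each), a 6.95-fold higher level (log2 difference 2.80 ± 0.17, SE, limma adjusted p = 5.79e-05). The call held under all 16 alternative settings, including the loss of any 1 array (log2 difference 2.68 to 2.91). Because Cyp2c55 is abundant in gut, gut markers were read beside it. Cdx2 and Muc2 were not well above background on any array. Vil1 and Slc5a1 were each well above background on 2 PVBL arrays and 1 sham array. Krt20 was so on 1 PVBL array and 0 sham arrays. Lgals4 was so on 3 PVBL and 3 sham arrays and was not called (-0.40 ± 0.34, limma adjusted p = 0.384). A gut source of the Cyp2c55 signal was not tested. Cdx1 was well above background on 3 sham arrays and 0 PVBL arrays, and so passed the filter through sham alone. Its lower call (limma adjusted p = 0.00945) sets sham signal against PVBL readings not well above background. The summed level of the 8 gut genes with a probe was 87.8 to 121 in PVBL and 78.9 to 131 in sham (in multiples of the array's 75th percentile). Most of this sum was Fabp2, whose log2 level was 6.57, 6.90 and 6.39 in PVBL and 6.26, 6.49 and 6.99 in sham.

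Cyp1a1, the classic target gene of Ahr that oxidises polycyclic aromatic hydrocarbons, was the other member that rose. Its log2 level was -1.50, -1.26 and -1.08 in PVBL 1 to 3, against -2.04, -2.40 and -2.10 in sham 1 to 3. The groups did not overlap, and the difference was 0.90 ± 0.16 (SE, 1.87-fold, limma adjusted p = 0.00707). With normexp background correction it was 0.40 and the call was lost (adjusted p = 0.0631). Cyp1a2, the constitutive liver member of the subfamily, which oxidises caffeine and aromatic amines, was not called. Its level was 4.88, 5.28 and 4.52 in PVBL and 5.05, 4.85 and 5.05 in sham. The ranges overlapped, with PVBL 2 above and PVBL 3 below every sham array (SD 0.38 in PVBL and 0.12 in sham). The difference was -0.09 ± 0.20 (SE, limma adjusted p = 0.755), and above 0 with median, quantile and spike-in scaling. Cyp1b1, which is mostly active outside the liver and hydroxylates oestradiol, was well above background on 2 PVBL arrays and no sham array and was not tested, with readings of -3.86, -4.71 and -3.31 in PVBL and -4.42, -4.12 and -3.76 in sham.

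In the 2a subfamily no gene was called in limma, and none of the 3 tested had an unadjusted p under 0.05, against 45.4% of all genes tested. Cyp2a4, a testosterone hydroxylase higher in female liver, was at 8.09, 8.61 and 8.53 in PVBL and 8.46, 8.51 and 8.38 in sham. The groups overlapped in this probe and in a second one (differences -0.04 and 0.08). Cyp2a4 and Cyp2a5 are nearly identical, so signal on the Cyp2a4 probes may come from either. Cyp2a12, which restores the 7-alpha hydroxyl group of bile acids in mouse liver, was at 8.02, 8.09 and 8.07 in PVBL and 8.07, 7.93 and 8.30 in sham (difference -0.04 ± 0.13, adjusted p = 0.826). The signs of Cyp2a4 and Cyp2a12 turned positive with median, quantile and spike-in scaling. Cyp2a22 was dim and scattered, at -2.86, -3.04 and -3.92 in PVBL and -3.98, -3.92 and -6.26 in sham. Its difference of 1.44 ± 0.64 did not pass (adjusted p = 0.122). It passed with spike-in scaling (1.88) and with the replicate number as a block (adjusted p = 0.027). Sham 3 was not well above background, and without it the difference was 0.67.

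Only Cyp2b10 was tested in the 2b subfamily. It is the standard indicator of Nr1i3 activation. Its level was 1.71, 1.52 and 2.23 in PVBL and 1.80, 0.82 and 0.24 in sham, so that sham 1 lay within the PVBL range and the sham arrays were spread more widely. The difference of 0.87 ± 0.39 did not pass (limma adjusted p = 0.129, unadjusted p = 0.0623). It was 1.29 and called without sham 1 (adjusted p = 0.0285) and 1.30 and called with spike-in scaling (adjusted p = 0.0149). Cyp2b9 and Cyp2b13, both known from female liver, were well above background on at most 1 array of a group, with Cyp2b9 at -4.17, -4.16 and -3.76 in PVBL and -3.67, -4.09 and -4.19 in sham. Cyp2b13 read -5.52, -5.01 and -5.09 in PVBL and -4.15, -4.41 and -4.84 in sham, and such dim readings have no order.

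**Figure D2:**
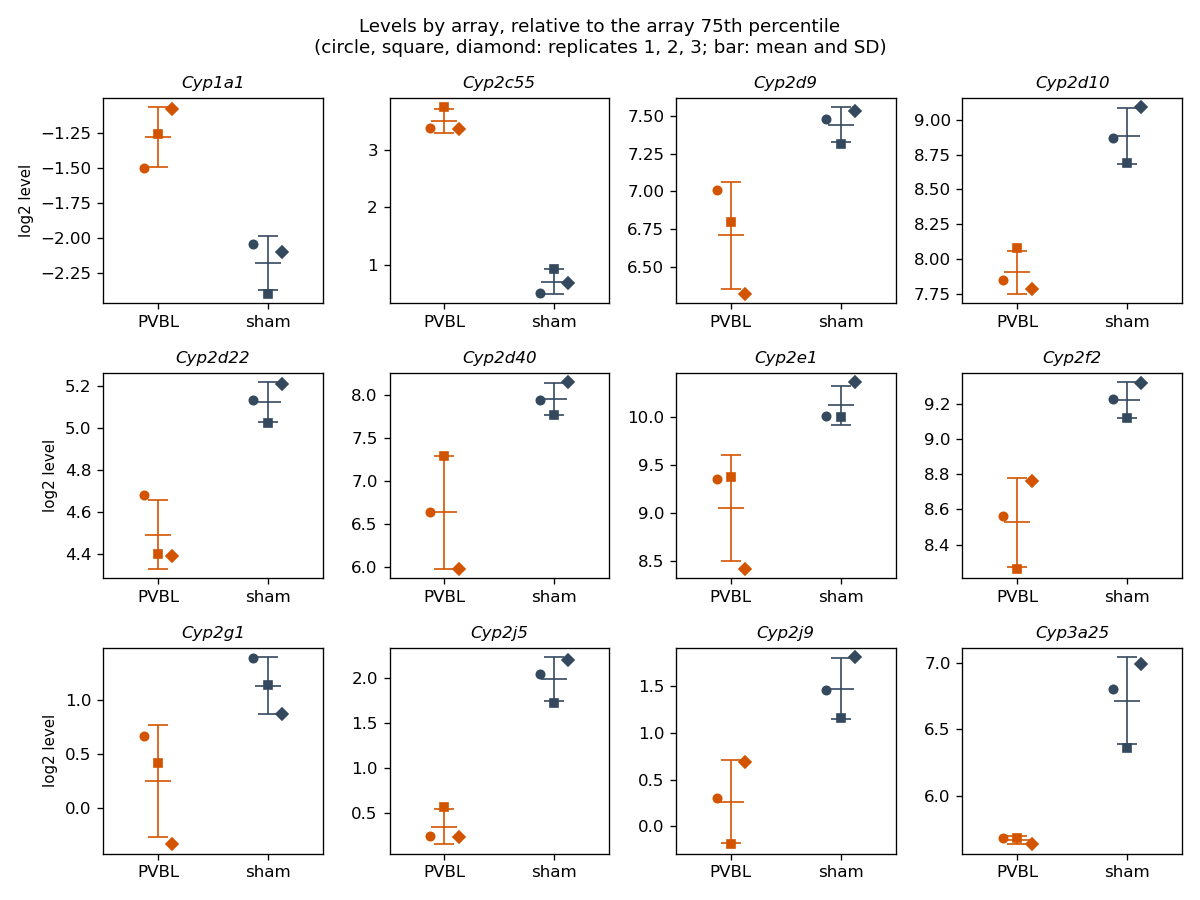
Log2 level relative to the array's 75th percentile (vertical axis, a separate scale in each panel) in PVBL and sham for the 12 called genes, with circles, squares and diamonds for replicates 1, 2 and 3 and the mean and SD as bars. In each panel the groups do not overlap, PVBL being higher for Cyp1a1 and Cyp2c55 and lower for the other genes.

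Apart from Cyp2c55, the 2c subfamily held genes with a lower mean and a wide spread in PVBL and genes whose PVBL and sham values overlapped. These enzymes are known in mice as epoxygenases and hydroxylases of arachidonic acid and of drugs. Of the 11 tested, 1 rose and none fell in limma, against 15.1% and 17.8% of all genes tested. An unadjusted p under 0.05 was found for 8 of them, Cyp2c55 included, against 45.4% of all genes tested. Cyp2c37, Cyp2c38, Cyp2c39, Cyp2c50 and Cyp2c54 had differences from -1.33 to -1.14. For Cyp2c54 the level was 7.03, 7.59 and 5.75 in PVBL and 8.31, 7.91 and 8.12 in sham. Cyp2c50 was at 7.31, 7.72 and 5.89 in PVBL and 8.40, 8.04 and 8.17 in sham. Cyp2c37 was at 6.16, 6.53 and 4.66 in PVBL and 7.36, 6.96 and 6.98 in sham. In each of these 3 genes all PVBL arrays lay below all sham arrays, PVBL 3 lay by far the lowest, and PVBL 2 was the nearest to sham. Cyp2c39, known as a retinoic acid hydroxylase, had the same order, at 4.75, 5.21 and 3.48 in PVBL and 5.94, 5.59 and 5.59 in sham.

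The PVBL arrays were far more spread than the sham arrays in these genes. The SD within PVBL was 0.99 for Cyp2c37, 0.96 for Cyp2c50 and 0.94 for Cyp2c54, against 0.23, 0.18 and 0.20 in sham. The adjusted p was 0.0523 for Cyp2c54, 0.0573 for Cyp2c39, 0.0618 for Cyp2c37, 0.067 for Cyp2c50 and 0.101 for Cyp2c38. Without PVBL 3 the differences were smaller but Cyp2c37 (-0.76), Cyp2c39 (-0.73), Cyp2c50 (-0.69) and Cyp2c54 (-0.81) were called lower, with adjusted p from 0.0261 to 0.0317, while Cyp2c38 (-0.57) was not. Without PVBL 2 all 5 were called, at -1.72 to -1.58, and so was Cyp2c29 (-0.90). Array weights also brought calls for these 6 genes, and raised the lower calls over all genes from 2422 to 3438. Cyp2c54 (-1.25) was called with normexp. Cyp2c39 was called when only genes above background on all 6 arrays were tested or with the replicate number as a block, and Cyp2c54 under the first of these. A second probe of Cyp2c54 was called lower (-1.01 ± 0.32, adjusted p = 0.0457) and another was not (-1.34, adjusted p = 0.0535).

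Cyp2c29, another epoxygenase of the central vein region, was at 7.29, 7.59 and 6.47 in PVBL and 7.87, 7.69 and 7.77 in sham. The difference of -0.66 ± 0.27 did not pass (adjusted p = 0.104), with PVBL 3 again the lowest. Cyp2c67 and Cyp2c68 differed by -0.44 ± 0.22 and -0.52 ± 0.21 without passing, and both had every PVBL array below every sham array. Both were called with the authors' deposited table (-0.46 and -0.52). In that table all groups were separate beforehand, and of 4524 genes tested 2040 were called higher and 2369 lower. A call there was thus nearly given in advance. Cyp2c68 was also called with array weights (-0.40). Cyp2c70, which makes the muricholic acids particular to rodents, was at 8.08, 8.45 and 8.0 in PVBL and 7.91, 7.97 and 8.39 in sham, and the groups overlapped (difference 0.09 ± 0.19). Cyp2c44, an arachidonic acid epoxygenase, also overlapped, at 7.11, 6.93 and 6.52 in PVBL and 7.16, 6.91 and 6.89 in sham (difference -0.13 ± 0.18, near 0 or above it with median, quantile and spike-in scaling). No array had Cyp2c65 well above background (-4.98 to -4.26 in PVBL and -6.47 to -4.83 in sham).

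The 2 probes of Cyp2c38 disagreed. The brighter one read 6.00, 6.65 and 4.62 in PVBL and 7.07, 6.84 and 6.79 in sham, in the same order over PVBL arrays as Cyp2c37, Cyp2c39, Cyp2c50 and Cyp2c54. The other read -1.71, -1.87 and -1.44 in PVBL and -1.28, -1.50 and -2.32 in sham, with full overlap (difference 0.03 ± 0.28). The coding sequences of these genes are known to be very alike, probe sequences were not used here, and how much of each 2c signal comes from a neighbouring gene was not tested.

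Along chromosome 19 the 14 Cyp2c genes of the list run in the order Cyp2c55, Cyp2c65, Cyp2c29, Cyp2c39, Cyp2c38, Cyp2c67, Cyp2c68, Cyp2c40, Cyp2c69, Cyp2c37, Cyp2c54, Cyp2c50, Cyp2c70 and Cyp2c44 in the RefSeq table. Cyp2c55, the gene that rose, is at one end. Cyp2c37, Cyp2c54 and Cyp2c50, with differences of -1.32, -1.33 and -1.23, follow one another, and Cyp2c39 and Cyp2c38 (-1.23 and -1.14) are neighbours too. Cyp2c67 and Cyp2c68, with smaller differences, stand between these groups, and Cyp2c70 and Cyp2c44, next after Cyp2c50, were near 0.

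**Figure D3:**
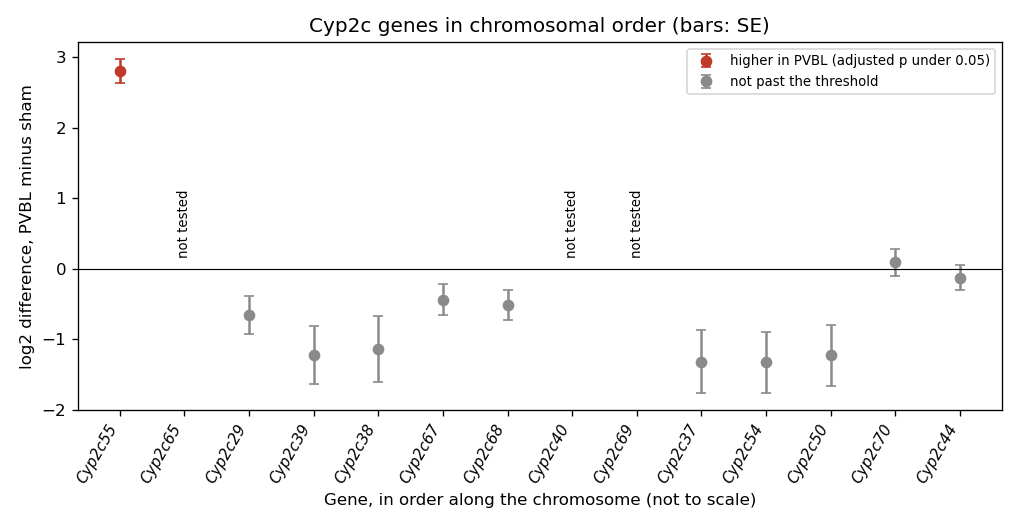
Log2 difference (PVBL minus sham, vertical axis) of the Cyp2c genes in their order along the chromosome (horizontal axis, not to scale), with limma's standard error as bars. Cyp2c55 is at 2.80 at one end, Cyp2c37, Cyp2c54 and Cyp2c50 lie side by side near -1.3, and the 3 genes without a tested probe carry no point.

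In the 2d subfamily 4 of 5 genes fell (80%, against 17.8% of all genes tested). In all 5 every PVBL array lay below every sham array, as in 29.1% of all genes tested. With spike-in scaling, under which 186 of all 13586 genes were called lower, none of the 5 was called. The differences then ran from -0.89 (Cyp2d40) to -0.04 (Cyp2d26). Cyp2d10 was at 7.85, 8.08 and 7.78 in PVBL and 8.87, 8.69 and 9.09 in sham, a difference of -0.98 ± 0.15 (SE, 1.97-fold lower, limma adjusted p = 0.00417). Cyp2d40 was at 6.63, 7.29 and 5.97 in PVBL and 7.94, 7.76 and 8.14 in sham (-1.32 ± 0.32, 2.49-fold lower, adjusted p = 0.0196). Here PVBL 3 was again lowest and PVBL 2 nearest to sham. The call of Cyp2d40 was lost without PVBL 1 (-1.32), sham 1 (-1.32) or sham 3 (-1.22). Cyp2d9, the testosterone 16-alpha hydroxylase typical of male mouse liver, was at 7.01, 6.80 and 6.32 in PVBL and 7.48, 7.31 and 7.53 in sham (-0.73 ± 0.19, adjusted p = 0.0265). Its call was lost without any 1 sham array (-0.80 to -0.69), with quantile scaling (-0.49) and with dim probes kept. Cyp2d22, often set beside human CYP2D6, fell by 0.63 (SE 0.13, adjusted p = 0.0132), and this call was lost without sham 1 (-0.62). Cyp2d26 was at 9.17, 9.47 and 9.0 in PVBL and 9.73, 9.54 and 9.79 in sham, a difference of -0.47 ± 0.16 that did not pass (adjusted p = 0.0578) but did without PVBL 2 (-0.60) and with array weights (-0.45). The promoter windows of Cyp2d9 and Cyp2d10 were identical at 82.8% of columns, those of Cyp2d40 and Cyp2d26 at 44.7%, and how far the 2d probes share signal was not tested.

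Cyp2e1, the ethanol and acetaminophen oxidising enzyme of pericentral hepatocytes, fell by 1.07 (SE 0.27, 2.10-fold lower, limma adjusted p = 0.0244). Its level was 9.36, 9.38 and 8.42 in PVBL, against 10.01, 10 and 10.36 in sham. A second probe read 8.12, 8.15 and 6.84 in PVBL and 9.25, 8.98 and 9.34 in sham (difference -1.49 ± 0.35, adjusted p = 0.0178). In both probes PVBL 3 lay about 1 unit below the other PVBL arrays. The fall was 1.69-fold without PVBL 3, and still called. The call was lost without any 1 sham array (-1.13 to -0.95), with quantile scaling (-0.64), with dim probes kept and with the replicate number as a block (adjusted p = 0.0512).

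Cyp2f2, the naphthalene oxidising enzyme of lung club cells and, in liver, of periportal hepatocytes, also fell. It was at 8.56, 8.26 and 8.76 in PVBL and 9.23, 9.12 and 9.32 in sham (-0.70 ± 0.16, 1.62-fold lower, limma adjusted p = 0.0159). Here PVBL 3 was the highest PVBL array, unlike in Cyp2e1 and the 2c genes. The call was lost without sham 1 (-0.70) or sham 3 (-0.65) and with quantile scaling (-0.35). Cyp2g1, best known from olfactory mucosa, was at 0.66, 0.41 and -0.34 in PVBL and 1.39, 1.14 and 0.87 in sham. Its difference of -0.88 ± 0.27 passed the threshold narrowly (adjusted p = 0.045). It was lost without PVBL 2, PVBL 3 or any 1 sham array (-1.02 to -0.59), with median scaling (-0.75) and with dim probes kept.

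Among the 2j genes, epoxygenases of arachidonic acid, 2 of 3 fell (66.7%, against 17.8% of all genes tested). Cyp2j5, known from kidney and liver, had the largest fall of all members, with levels of 0.24, 0.57 and 0.23 in PVBL and 2.05, 1.73 and 2.20 in sham. The PVBL arrays lay close together and well below sham, at -1.65 ± 0.17 (SE, 3.13-fold lower, limma adjusted p = 0.000835), and the call held under all 16 alternative settings (-1.78 to -1.54 without any 1 array). Cyp2j9, described in mouse brain, was at 0.30, -0.19 and 0.69 in PVBL and 1.46, 1.16 and 1.81 in sham. The difference was -1.21 ± 0.26 (2.32-fold lower, adjusted p = 0.0135), with PVBL 2 lowest. Cyp2j6 was not called, at 2.95, 2.67 and 2.75 in PVBL and 2.49, 2.55 and 2.77 in sham (0.19 ± 0.14, adjusted p = 0.327), while its second probe was at -0.43 ± 0.18 (adjusted p = 0.112). Neither probe passed, and the probes differed in sign.

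Cyp2r1, the vitamin D 25-hydroxylase, was at 4.43, 4.55 and 4.39 in PVBL and 4.78, 4.74 and 4.72 in sham. The groups did not overlap, but the difference of -0.29 ± 0.11 was small and did not pass (limma adjusted p = 0.0868). It passed with array weights (-0.31) and with the authors' deposited table (-0.30), where nearly all genes were called. A second probe was at -0.08. Cyp2u1, a fatty acid hydroxylase, was not called either (-0.16 ± 0.25, adjusted p = 0.643).

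In the 3a subfamily, the enzymes best known for drug and steroid oxidation, 1 of 5 tested genes fell (20%, against 17.8% of all genes tested). Cyp3a25 was at 5.69, 5.69 and 5.64 in PVBL and 6.80, 6.36 and 6.99 in sham. The PVBL arrays were nearly equal and all below sham (-1.04 ± 0.18, 2.06-fold lower, limma adjusted p = 0.0056, -1.22 to -0.90 without any 1 array). Cyp3a11, the main 3a gene of adult mouse liver and a target of Nr1i2, was at 9.14, 9.42 and 9.31 in PVBL and 9.43, 9.08 and 9.51 in sham, with no call (-0.05 ± 0.16, adjusted p = 0.82). Its second probe read 7.70, 7.71 and 7.93 in PVBL and 7.64, 7.23 and 7.62 in sham, also without a call (0.29 ± 0.16, adjusted p = 0.195), so the sign depended on the probe, as it did on median, quantile and spike-in scaling.

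Cyp3a16, known from fetal and young liver, was at 6.83, 6.95 and 6.91 in PVBL and 6.98, 6.60 and 6.98 in sham. Cyp3a59 was at 6.75, 6.79 and 6.81 in PVBL and 6.91, 6.54 and 6.90 in sham. On these probes both lay within the sham range, and sham 2 was the lowest sham array in Cyp3a11, Cyp3a16 and Cyp3a59. A second probe of Cyp3a59 read 2.78, 2.83 and 2.76 in PVBL and 2.61, 2.36 and 2.59 in sham, separate but not called (0.27 ± 0.12, adjusted p = 0.131). With the authors' deposited table, where nearly all genes were called, Cyp3a59 was called higher (0.26, limma adjusted p = 0.0407). Its sign and call thus depended on the probe and the values used. The 3a genes are alike in coding sequence, and how far their probes read each other's transcripts was not tested. The promoter windows of Cyp3a59 and Cyp3a25, the gene that fell, were identical at 94.8% to 95.6% of columns, and the difference between their responses was not tested. Cyp3a13, the most divergent of the 3a genes here, was at 4.86, 5.09 and 4.52 in PVBL and 5.53, 5.18 and 5.04 in sham (-0.43 ± 0.20, adjusted p = 0.129), while its second probe was called lower (-0.96 ± 0.27, adjusted p = 0.0317). Cyp3a44, a gene of female liver, was too dim to test, at -3.23, -1.77 and -4.87 in PVBL and -3.57, -5.49 and -4.28 in sham.

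Across the family the PVBL arrays were uneven. PVBL 3 was the lowest PVBL array in 25 of the 35 tested members (71.4%), against 48.1% of all genes tested. PVBL 2 was lowest in 4 (30.1% of all genes) and PVBL 1 in 6 (21.8%). PVBL 3 was lowest in all 11 genes of subfamily 2c in all 5 of subfamily 2d and in 2 of 5 in subfamily 3a. The median SD within PVBL was 0.58 for the 2c genes and 0.06 for the 3a genes, against 0.18 and 0.23 in sham, and over all genes tested it was 0.21 in PVBL and 0.15 in sham. Without PVBL 3 the members' median difference was -0.28, with 2 higher and 13 lower. Over all 13586 genes tested it was then -0.08, with 2206 higher and 2571 lower.

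**Figure D4:**
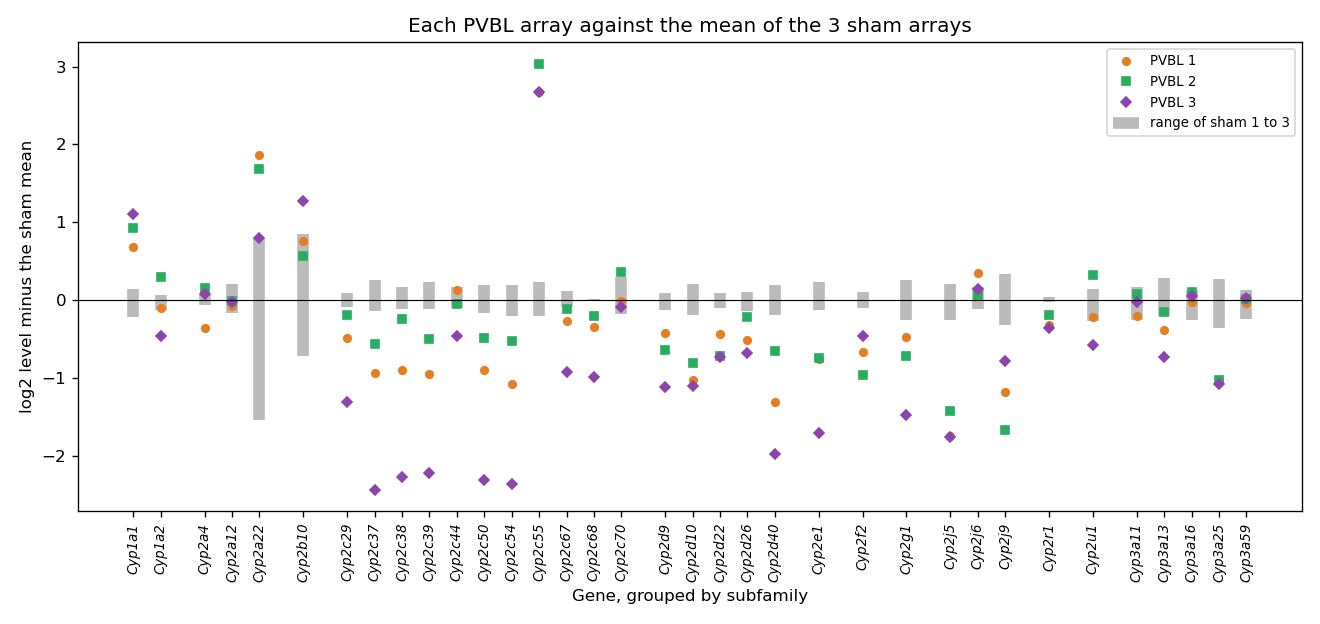
Log2 level of each PVBL array minus the mean of the 3 sham arrays (vertical axis) for the 35 tested genes, with the range of the sham arrays as grey bars. PVBL 3 (diamonds) lies more than 2 units below the sham mean in Cyp2c37, Cyp2c38, Cyp2c39, Cyp2c50 and Cyp2c54, while the 3 PVBL arrays nearly coincide in Cyp3a25.

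Read by place in the lobule, 8 members are known as pericentral, and 7 of these were tested. Only Cyp2e1 of these was called (lower), which is 14.3%, against 17.8% of all genes tested. An unadjusted p under 0.05 was found for 5 of the 7 (45.4% of all genes tested). The median was -1.07, with a range from -1.33 (Cyp2c54) to -0.05 (Cyp3a11). Without PVBL 3, Cyp2c37, Cyp2c50 and Cyp2c54 were at -0.76, -0.69 and -0.81. Cyp2f2, known as periportal, also fell (-0.70). Cyp1a2 and Cyp3a11, both known as pericentral, overlapped sham. Of 10 members known to be higher in female liver, 4 were tested and none was called in limma, against 32.9% of all genes tested. Of the 4, 1 (Cyp2c39) had an unadjusted p under 0.05, against 45.4% of all genes tested. So few genes cannot show a departure from these shares.

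Por, the electron donor of these enzymes, was at 6.72, 6.78 and 6.34 in PVBL and 6.96, 6.84 and 6.95 in sham, not overlapping but not called (-0.30 ± 0.15, limma adjusted p = 0.156). Of the 6 redox partners tested, which include the cytochrome b5 genes, 1 fell (16.7%, against 17.8% of all genes tested). This was Pgrmc2 (-0.59 ± 0.13, lost without sham 1 at -0.54). All 6 had PVBL below sham on every array, as had 29.1% of all genes tested. With spike-in scaling the median of the 6 was 0.04. None of 12 genes of haem synthesis and breakdown was called in limma, against 32.9% of all genes tested (2 had an unadjusted p under 0.05, median -0.06). Alas1, the rate-limiting enzyme of haem synthesis, was at 8.26, 8.25 and 7.68 in PVBL and 7.70, 7.36 and 8.44 in sham (0.23 ± 0.30, adjusted p = 0.58).

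Among the receptors and partners that control P450 genes, 4 of 10 tested fell (40%, against 17.8% of all genes tested). None rose, against 15.1% of all genes. Rxra, the common partner of Nr1i2 and Nr1i3, fell by 0.74 (SE 0.17, adjusted p = 0.0177, lost without sham 1 at -0.72 or sham 2 at -0.71). The others were Ppara (-0.75 ± 0.23, lost under 11 of 16 alternatives, -0.99 to -0.56 where 1 array was left out), Nr3c1, the glucocorticoid receptor (-0.65 ± 0.15, lost without sham 1 at -0.55), and Rxrb (-0.53 ± 0.11, lost without sham 1 at -0.54). The xenobiotic receptors themselves were not called. Ahr was at 3.98, 3.90 and 3.49 in PVBL and 3.38, 3.12 and 3.56 in sham (0.44 ± 0.18, adjusted p = 0.105). It was called higher without PVBL 3 (0.59), with normexp (0.52), median scaling (0.57) and array weights (0.60). Nr1i2 was at 3.33, 3.31 and 3.52 in PVBL and 2.79, 2.82 and 3.31 in sham (0.42 ± 0.17, adjusted p = 0.102), and was called higher without sham 3 (0.58), with normexp (0.48), median scaling (0.55) and array weights (0.47). Nr1i3 was at 3.94, 3.96 and 3.38 in PVBL and 3.93, 4.02 and 3.95 in sham, with PVBL 3 the only array apart (-0.21 ± 0.18, adjusted p = 0.397).

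Of 12 hepatocyte transcription factor genes 2 fell (16.7%, against 17.8% of all genes tested). Cebpa was at 4.51, 4.20 and 3.83 in PVBL and 5.14, 5.28 and 5.2 in sham (-1.03 ± 0.18, 2.04-fold lower, limma adjusted p = 0.00704). Nr5a2 (-0.56 ± 0.18, adjusted p = 0.0474) lost its call without any 1 of the 6 arrays (-0.65 to -0.41) and under 5 of the other alternatives. Hnf4a was not called (-0.17 ± 0.14, adjusted p = 0.383, above 0 with quantile and spike-in scaling). Of 4 tested genes on the path by which growth hormone sets sex-biased P450 levels, 2 fell (50%, against 17.8% of all genes tested). Ghr was at 5.27, 5.37 and 4.5 in PVBL and 6.49, 6.35 and 6.51 in sham (-1.40 ± 0.23, 2.65-fold lower, limma adjusted p = 0.00536). Stat5b was at -0.78 ± 0.14 (adjusted p = 0.00704). In Ghr and Cebpa, too, PVBL 3 was the lowest array. With spike-in scaling, under which 186 of all 13586 genes were called lower, none of these 9 falls among partner, receptor and factor genes was called.

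Markers of cell types moved beside these results. Over all genes tested, 15.1% rose and 17.8% fell. All 9 hepatocyte markers with a probe were above background on every array, 2 of them fell and none rose, with a median of -0.38 and a summed level of 5410 to 6600 in PVBL and 7460 to 8430 in sham. Of 6 tested biliary markers 4 rose and 1 fell (summed level of all 9 with a probe 8.15 to 23.3 in PVBL and 2.65 to 5.39 in sham). The hepatocyte sum was thus lower, and the biliary sum higher, on every PVBL array than on any sham array. Such sums follow the brightest probes. Most of the biliary sum in PVBL was Spp1, at 3.75, 2.53 and 4.30 in PVBL and 0.36, 1.07 and 1.77 in sham. With spike-in scaling the median difference was 0.05 for the hepatocyte markers and 1.66 for the biliary markers. Of 11 stellate markers 4 rose and 1 fell (121 to 152 in PVBL and 126 to 132 in sham). Of 10 endothelial markers 3 fell (49.0 to 73.3 in PVBL and 110 to 117 in sham). Of 9 Kupffer and macrophage markers 1 rose (119 to 297 in PVBL and 156 to 175 in sham), and of 9 tested lymphocyte markers 2 fell (40 to 75.1 in PVBL and 64.9 to 84.8 in sham). Most of the stellate sum was Dcn and most of the lymphocyte sum was Cd4, neither of them called. All 5 division markers rose (30.3 to 45 in PVBL and 0.76 to 0.825 in sham). Some called markers passed the filter through a single group. Top2a (division, higher) was well above background on 3 PVBL and 0 sham arrays, and Krt7 (biliary, higher) on 3 and 2. Cftr (biliary, lower) was so on 1 PVBL array and 3 sham arrays, and Cd8a (lymphocyte, lower) on 0 and 3. The size of their differences is limited by the dim group. The part of cell types and of division in the differences of the P450 genes was not tested.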

How the data were processed

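Scanner output of 6 arrays was used, 1 per sample. The deposited values are spot intensity readings. Per the file headers, the software was Feature Extraction 10.7.3.1 and the array design 028005 (build mm9). The submitters' processing notes name version 9.1. The processed signal used here was background-corrected by the scanner software, per the file headers. The authors' deposited value table holds log2 values with no normalization given in the sources used here. Its 7850 rows all (100%) had groups that did not overlap, so it was used only as an alternative. Of 4524 genes tested with it, 2040 were called higher and 2369 lower. Of the 14 P450 members in it, 3 were called higher and 11 lower.

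Log2 of the processed signal was taken, control spots and outlier spots (115 to 201 on an array) were removed, replicate spots were averaged, and the 75th percentile of the array was subtracted. A probe was kept if every array of PVBL, of sham or of both had it well above background (27914 of 55681). Of all probes 26413 (47.4%) matched a RefSeq transcript (table of GRCm38.p6, names only), and each gene was read from its brightest passing probe. PVBL and sham were fitted in limma 3.58.1 (R 4.3.3) by lmFit and eBayes, two-sided, with Benjamini-Hochberg adjustment. SE is limma's. Having 3 arrays a group limits the precision. Alternatives were normexp (offset 50, on the median spot signal, the files holding no mean signal), other scalings, filters and probes, array weights, the replicate number as a block and leaving out each array.

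The members and lists were chosen with earlier results of these data known. All members are named by rule. Of the partner lists, up to 4 called genes each were named, with Por, Alas1, Nr1i2, Nr1i3, Ahr and Hnf4a whatever their values. Deviations from the group mean of same-numbered arrays correlated at 0.17, -0.06 and 0.18, so the numbers were not taken as pairs.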

Additional observations from a re-analysis of the deposited data

How the results depend on the processing

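Cyp2c55 and Cyp2j5 kept their direction and call under all 16 alternatives. Over all genes, 2053 were called higher and 2422 lower, and the lower count was 1559 with median scaling, 186 with spike-in scaling (1612 higher) and 1582 without a filter on dim probes, where more genes were tested. Leaving out 1 array gave 1327 to 2206 genes higher and 1077 to 2571 lower. Of the P450 members, 1 was called higher with normexp (2009 over all genes), and with spike-in scaling 4 were higher and 1 lower (median -0.04). With array weights 19 of 35 members were called lower, as were 3438 of all 13586 genes tested. For the members, leaving out 1 array gave 2 to 3 higher and 4 to 16 lower. Without sham 1 there were 4 members lower (1077 over all genes) and without sham 3 there were 5 (1518 over all genes). Over the fits without 1 array the members' median lay between -0.59 and -0.28. With the replicate block the members had 3 calls higher and 10 lower, and over all genes 1808 higher and 1995 lower. In that fit Cyp2a22 and Cyp2c39 gained and Cyp2e1 lost a call (adjusted p = 0.0512), and no other named gene changed its call. Other losses and gains of single genes are given beside their values, as counts of alternatives for Ppara and Nr5a2.

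Signs of members near 0 turned as follows. With spike-in, quantile and median scaling the differences were 0.34, 0.03 and 0.04 for Cyp1a2, 0.39, 0.27 and 0.09 for Cyp2a4, 0.39, 0.23 and 0.09 for Cyp2a12, 0.30, 0.11 and 0 for Cyp2c44, 0.38, 0.34 and 0.08 for Cyp3a11 and 0.43, 0.25 and 0.13 for Cyp3a59. With spike-in scaling alone Cyp2r1 was at 0.14, Cyp2u1 at 0.27, Por at 0.13 and Nr1i3 at 0.22, and Hnf4a was at 0.26 (0.07 with quantile scaling). With normexp Cyp2a4 and Cyp3a59 were each at 0.07, Cyp2a12 at 0.02 and Cyp3a11 at 0.03. With the mean over probes Cyp2a4 was at 0.02, Cyp2j6 at -0.12, Cyp3a11 at 0.12 and Cyp3a59 at 0.13, and the authors' table had Cyp3a59 at 0.26. Other probes of a gene, a setting added once the data had been seen, gave 0.08 for Cyp2a4, 0.03 for Cyp2c38, -0.43 for Cyp2j6, 0.29 for Cyp3a11 and 0.27 for Cyp3a59. Leaving out 1 array gave -0.28 to 0.10 for Cyp1a2, -0.14 to 0.12 for Cyp2a4, -0.13 to 0.06 for Cyp2a12, -0.26 to 0.04 for Cyp2c44, -0.05 to 0.24 for Cyp2c70, -0.40 to 0.05 for Cyp2u1, -0.18 to 0.03 for Cyp3a11, -0.09 to 0.11 for Cyp3a16, -0.13 to 0.06 for Cyp3a59 and -0.01 to 0.53 for Alas1. The cause of these shifts was not tested. All arrays shared 1 slide and scan, so a slide block was not run. Values of Cyp1a1, Cyp2a22 and other dim genes are limited by signal over background.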
